A study of Mus musculus with 17 samples.

Results

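Immune checkpoint ligands and receptors are the paired surface proteins, and a few secreted ones, that raise or lower the activity of leukocytes at cell contact. The members described here were the rows of the mouse kidney expression table that carry 1 of 10 gene symbols, and all 10 were found among the 22558 genes used. Whole-kidney RNA was sequenced from 17 male mice, 1 library per mouse. The Ctrl group held 5 wild-type C57BL/6 mice given saline, the Case group 6 db/db mice (BKS.Cg-Dock7m +/+ Leprdb/J, which lack the signalling form of the leptin receptor and become obese and diabetic) given saline, and the Dapa group 6 db/db mice that took dapagliflozin by mouth at 1 mg/kg daily over 6 weeks. Dapagliflozin blocks SGLT2, through which the proximal tubule takes up glucose. All mice were 8 weeks old at the start. The Ctrl mice differ from both db/db groups in strain background as well as in the leptin receptor, so in any comparison with Ctrl strain and genotype cannot be told apart.

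The members fall into axes that are named by their binding pairs. Cd274 (PD-L1) and Pdcd1lg2 (PD-L2) are the ligands of the inhibitory T cell receptor PD-1, and Cd80 and Cd86 on antigen-presenting cells engage CD28, which costimulates T cells, or CTLA-4, which restrains them. Btla is an inhibitory receptor of B and T lymphocytes and dendritic cells, and Tnfrsf14 (HVEM) is its partner. Lgals9 encodes galectin-9, a secreted lectin and a ligand of the receptor TIM-3, Cd40 is the activating receptor of B cells, macrophages and dendritic cells for CD40 ligand, and Cd47 is the ligand through which most cells restrain phagocytosis by the receptor SIRPα (Sirpa) of macrophages. In healthy kidney these proteins sit both on the few resident leukocytes and, for Cd47 and PD-L1, on tubular and endothelial cells, and PD-L1 is known as a gene that interferon-gamma induces, through IRF1 among others.

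Levels are given as FPKM, the read count of a gene scaled to its length and to the total of the library, as the authors deposited them, and raw read counts are given where they are low. The libraries held 13039535 to 17779635 counts each, and 3 counts in a library, taken here as the limit of detection, corresponded to 0.0169 to 0.141 FPKM depending on the member and the library. Case 3 stood apart in its macrophage markers and in a marker of all leukocytes. Its summed FPKM of 10 macrophage markers was 206 against 29.5 to 58.7 in the other Case mice, 27.6 to 47.6 in Ctrl and 26.3 to 63.2 in Dapa, and its Ptprc, which marks all leukocytes, was at 1.19 FPKM against at most 0.599 elsewhere. Fold changes of the members without Case 3 are therefore given beside those with it. The tissue label was borne out by proximal tubule markers, whose summed FPKM was 9888 to 17159 in Ctrl, 1924 to 4899 in Case and 2513 to 6582 in Dapa. Most of this gap was 1 of the 8 genes, Kap, a kidney protein gene regulated by androgens, and without it the sums were 2186 to 2442, 1269 to 2521 and 1606 to 2133. In Case against Ctrl, at an adjusted p under 0.05 in the edgeR test used below, 4 of the 8 passed as lower (Kap, Lrp2, Slc22a6 and Miox) and 4 did not pass. Of the distal nephron markers 2 of 5 (Aqp2 and Calb1) and of the podocyte markers 2 of 4 (Nphs1 and Podxl) passed as higher. Over all tested genes 13.0% passed in either direction. The part of these markers in the values below was not tested. In RNA from whole kidney, fewer cells of a type and less RNA per cell cannot be told apart.

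The promoters of the members are shown because interferon-responsive factors bind short, recognisable letters near start sites. RefSeq windows of 300 bases (GRCm38.p6, 250 bases before the start site to 50 after it) matched 7 of the 10 members, all but Cd86, Sirpa and Cd40. The motifs searched on both strands were the IRF core GAAANNGAAA and the NF-κB element GGGNNTTTCC, which occurred in 3.44% and 1.63% of the 32851 windows in the table. The IRF core was found in Tnfrsf14 and Lgals9, where it is written in capitals and reads on the opposite strand, and neither motif was found in the windows of Cd274, Pdcd1lg2, Btla, Cd80 or Cd47. The window of Cd274 is at chr19:29367188-29367487 on the plus strand, that of Tnfrsf14 at chr4:154928028-154928327 on the minus strand and that of Lgals9 at chr11:78984875-78985174 on the minus strand. A match is a description of letters and not evidence of binding, no matches overlapped, and a missing match says only that these letters were not in this window.
Cd274: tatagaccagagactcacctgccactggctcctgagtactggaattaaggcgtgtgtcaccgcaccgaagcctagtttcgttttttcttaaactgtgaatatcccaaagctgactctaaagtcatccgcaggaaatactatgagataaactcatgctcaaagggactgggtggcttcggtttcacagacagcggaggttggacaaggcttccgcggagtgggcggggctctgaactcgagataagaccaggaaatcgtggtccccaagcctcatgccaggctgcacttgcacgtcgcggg
Tnfrsf14: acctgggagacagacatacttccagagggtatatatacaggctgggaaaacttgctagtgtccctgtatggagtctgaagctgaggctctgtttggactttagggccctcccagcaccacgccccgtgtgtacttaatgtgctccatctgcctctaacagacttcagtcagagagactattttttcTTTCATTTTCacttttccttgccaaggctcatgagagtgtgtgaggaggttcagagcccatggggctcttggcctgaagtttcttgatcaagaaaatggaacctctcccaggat
Lgals9: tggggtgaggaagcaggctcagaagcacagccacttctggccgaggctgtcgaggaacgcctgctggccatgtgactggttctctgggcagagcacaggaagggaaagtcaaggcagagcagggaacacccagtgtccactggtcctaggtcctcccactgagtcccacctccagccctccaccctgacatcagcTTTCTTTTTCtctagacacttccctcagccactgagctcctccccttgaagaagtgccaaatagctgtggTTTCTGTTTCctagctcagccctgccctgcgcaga
The capitals begin 64 bases before the RefSeq start site in Tnfrsf14, and 55 bases before and 15 bases after it in Lgals9. The start site of the Tnfrsf14 window lies 486 bases inside the gene as the expression table places it, so that whole window is within the gene there, while the start sites of the Lgals9 and Cd274 windows lie within 22 and 17 bases of the ends given in the table.

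In Ctrl kidneys the members differed widely in level per length. Cd47 was highest at 13.1 ± 0.536 FPKM (mean ± SD, n = 5), followed by Sirpa at 6.53 ± 1.05, Lgals9 at 2.11 ± 0.645, Cd274 at 1.41 ± 0.154, Tnfrsf14 at 0.511 ± 0.163 and Cd86 at 0.214 ± 0.129. Btla at 0.128 ± 0.0338 and Cd40 at 0.128 ± 0.0287 could not be ordered, and the ranges of Lgals9 and Cd274, of Tnfrsf14 and Cd86, and of Cd86 with Btla and Cd40 overlapped. Cd80 and Pdcd1lg2 had no read in any Ctrl mouse. The order of group means in Dapa was the same down to Cd86, after which Cd40 (0.202) stood above Btla (0.146), and those ranges overlapped, as did those of Sirpa and Lgals9, of Lgals9 and Cd274, of Tnfrsf14 and Cd86, and of Cd86 and Cd40. Case differed in the place of Cd274, whose mean of 9.57 FPKM stood second, above Sirpa at 7.29, with a range from 1.29 to 23.8 that took in those of Cd47, Sirpa and Lgals9. That place rested on Case 3 and Case 5, where Cd274 was above Cd47 (23.8 against 18.7 and 21.0 against 15.7 FPKM), and by the Case median Cd274 stood below Sirpa, at 4.70 against 6.11 FPKM. Cd40 stood above Btla in Case too, with overlapping ranges, and the ranges of Cd86 and Cd40 overlapped there as well. The plot of members by mouse shows these levels.

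The members lie on 5 chromosomes (mm10, positions as in the table). Chromosome 16 holds 4 of them, Cd86 at chr16:36603869-36666081, Cd80 at chr16:38458933-38486933, Btla at chr16:45224315-45252895 and Cd47 at chr16:49855618-49915010. Cd274 at chr19:29367455-29388095 and Pdcd1lg2 at chr19:29410919-29471157 are neighbours. Sirpa lies at chr2:129592835-129632228, Cd40 at chr2:165055627-165072948, Tnfrsf14 at chr4:154922210-154928563 and Lgals9 at chr11:78962974-78984946. All 10 are protein-coding genes in the GENCODE M21 annotation.

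**Figure D1:**
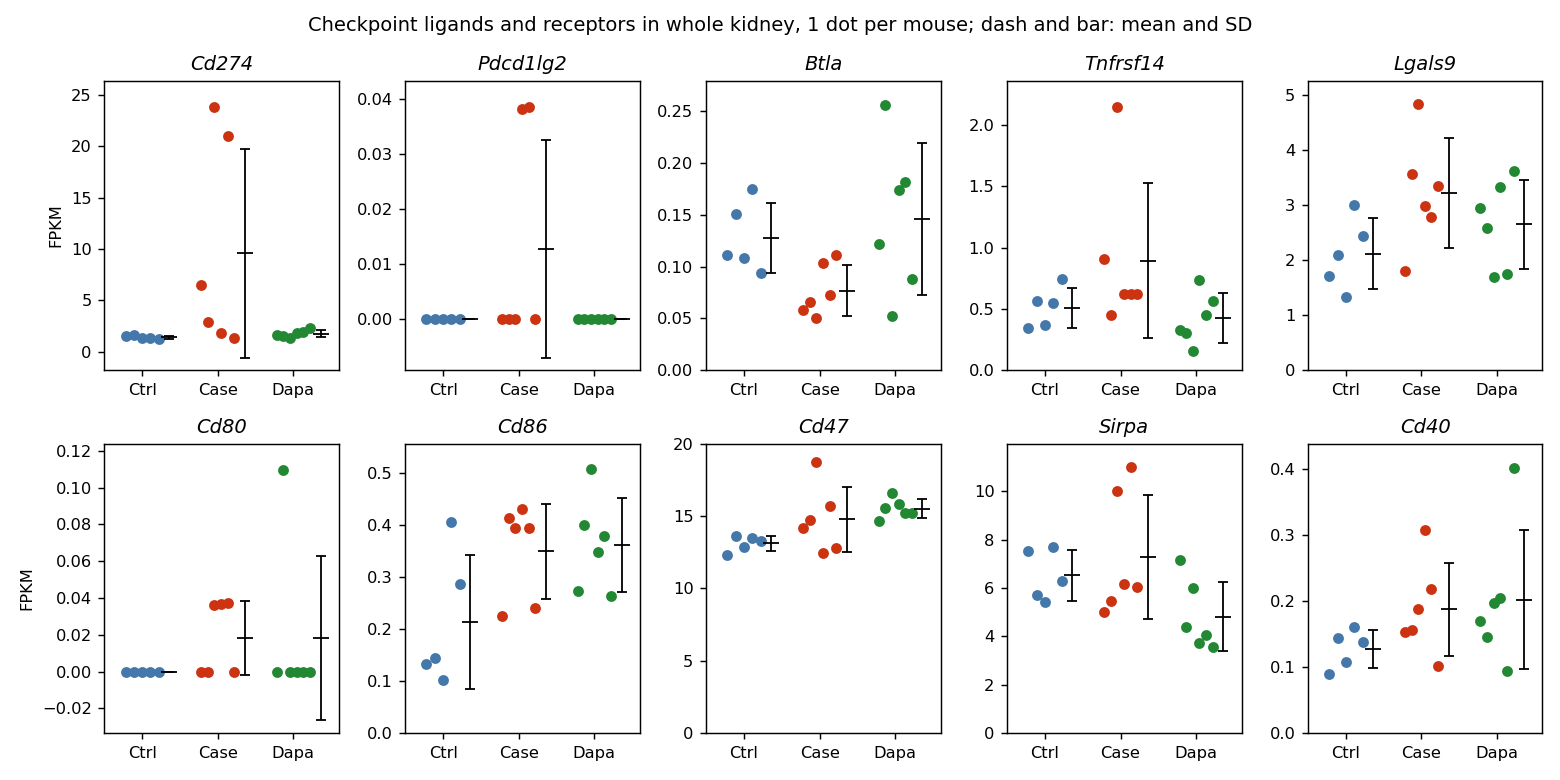
FPKM (vertical axes, linear, a scale of its own for each gene) of the 10 members in 5 Ctrl, 6 Case and 6 Dapa mice, 1 dot per mouse in order of replicate number, with the group mean and SD as a dash and bar. Cd274 lies between 1.24 and 2.29 in every Ctrl and Dapa mouse and reaches 23.8 in Case, whereas Cd80 and Pdcd1lg2 rest on 0 to 3 counts.

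Case kidneys were compared with Ctrl to ask which checkpoint genes differ in the diabetic kidney. Of the 8 members with enough counts to be tested, Cd274 alone passed an adjusted p under 0.05 (edgeR quasi-likelihood test, adjusted over 14582 genes), a share to be read against the 13.0% of all tested genes that did so. At an unadjusted p under 0.05 there were 3, Cd274 and Lgals9 higher in Case and Btla lower, beside 28.7% of all genes. In no member did the 2 groups lie wholly apart, while they did so in 8.43% of all genes. Without Case 3 no member passed the adjusted threshold, beside 11.8% of all genes in that fit, and 1 passed the unadjusted one, beside 28.1%.

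Cd274 had 1.56, 1.58, 1.32, 1.34 and 1.24 FPKM in Ctrl 1 to 5. The Case mice 1 to 6 had 6.48, 2.91, 23.8, 1.86, 21.0 and 1.29 FPKM, which is 334, 159, 1407, 107, 1201 and 83 reads. Case 3 and Case 5 were far above the rest, Case 1 and Case 2 were above every Ctrl and Dapa mouse, Case 4 was above every Ctrl mouse but among the Dapa mice, and Case 6 lay within the Ctrl range. The mean was 6.79 times that of Ctrl, and the log2 fold change was 2.65 ± 0.71 (SE; 95% interval 1.12 to 4.17; adjusted p = 0.0284). The spread between Case mice was far beyond counting error. The SD of the counts was 595 in Case, where counting error alone would give 23.4, whereas in Ctrl it was 9.39 against 9.15 and in Dapa 10.5 against 9.56. Without Case 3 the log2 fold change was 2.16 (adjusted p = 0.05002, which misses the threshold), and without Case 5 it was 2.21 (adjusted p = 0.0445). The call was also lost without any 1 of the Ctrl mice (adjusted p of up to 0.0694), with limma on log2(FPKM + 1) (adjusted p = 0.104) and with a term for the 7 libraries named in the processing notes (adjusted p = 0.0827), always with the same direction. The gene overlaps AC119228.1 on the other strand, and reads of the pair cannot be told apart unless counting used the strand. Of the 50-base stretches of Cd274 transcripts, 1.68% also occur in other genes.

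Of the interferon-gamma list, Irf1 and Ciita were high in the same mice. Irf1, an interferon-induced transcription factor that acts on the Cd274 gene, had 1.01 to 2.41 FPKM in Ctrl and 5.51, 4.18, 17.3, 2.62, 10.3 and 1.45 in Case 1 to 6. Ciita, the master regulator of MHC class II, had 0.541 to 0.785 FPKM in Ctrl and 8.96, 1.25, 20.1, 1.09, 17.4 and 0.396 in Case. The 6 Case mice stood in 1 order in both genes and in Cd274, from Case 3, Case 5, Case 1, Case 2 and Case 4 down to Case 6. Their log2 fold changes in Case against Ctrl were 2.00 ± 0.53 for Irf1 (adjusted p = 0.0277) and 3.51 ± 0.89 for Ciita (adjusted p = 0.0237), and 1.51 and 3.03 without Case 3 (adjusted p = 0.0452 and 0.0404). These 2 were the genes of the interferon-gamma list that changed among the 7 of 9 tested, beside 13.0% of all tested genes. The median log2 fold change of those 7 was 0.00 beside 0.03 over all genes. The receptor genes Ifngr1 and Ifngr2 had log2 fold changes of 0.00 and -0.04. Ifng itself had 6 reads in Case 3, 4 in Case 5, 1 in Case 4 and 0 in the other 14 mice, so its level was at or near the limit of detection.

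Leukocyte markers did not follow Cd274 in every mouse. Case 3 had the highest macrophage sum (206) and Ptprc (1.19), whereas Case 5, with nearly as much Cd274, had a macrophage sum of 32.3 and a Ptprc of 0.318 FPKM, within and below the Ctrl ranges. Case 1 had a macrophage sum of 57.3 and Ptprc at 0.302 FPKM. The neutrophil list summed to 17.8 FPKM in Case 3, 14.0 in Case 1 and 2.74 in Case 5, against at most 2.59 in Ctrl. The dendritic cell list reached 3.89 in Case 3 and 2.43 in Case 5, with 1.64 to 3.65 in Ctrl, and the T cell list summed to at most 2.49 and the B cell list to at most 1.36 FPKM in any mouse. Over the groups, 8 of the 10 macrophage markers had higher values in Case, with a median log2 fold change of 0.59 beside 0.03 over all genes. Of the 10, 1 passed, beside 13.0% of all tested genes, namely Cd14, a receptor for bacterial lipopolysaccharide (1.41 ± 0.38, adjusted p = 0.0284). Case 1, 2 and 3 had macrophage sums above the Ctrl range (57.3, 58.7 and 206) and Case 4, 5 and 6 within it (32.9, 32.3 and 29.5). Fold changes of these markers without Case 3 were not examined. Of the 4 dendritic cell markers tested 2 had higher values in Case, with a median log2 fold change of 0.09. Batf3, a transcription factor, passed as higher on 2 to 21 reads per mouse (1.51 ± 0.37, adjusted p = 0.0195). Clec9a (-0.29) and Itgax (-0.34) went the other way without passing. Cd209a of that list, too low to be tested, had 0.814 ± 0.351 FPKM in Ctrl and 0.0574 ± 0.0890 in Case. Which cells carried the Cd274 reads was not tested.

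**Figure D2:**
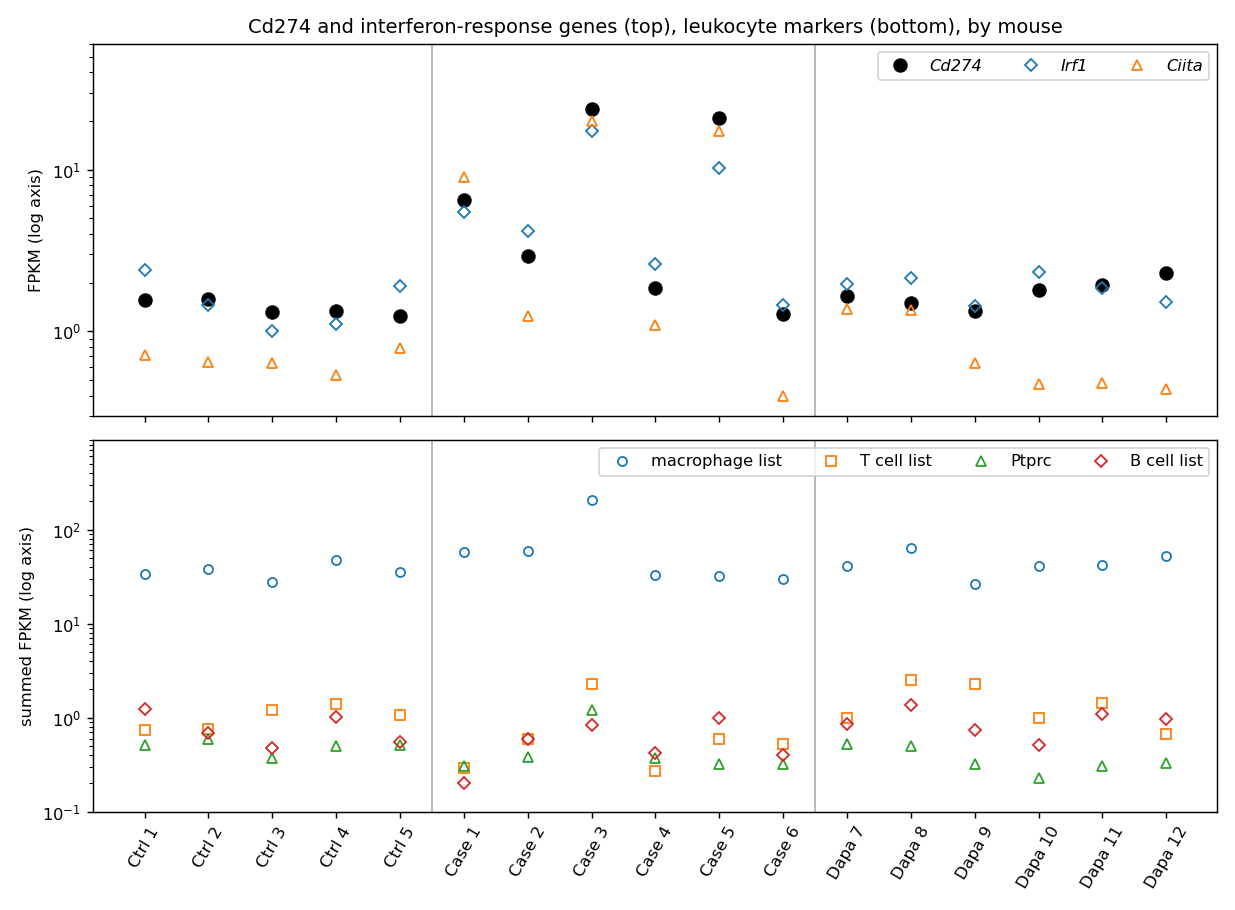
FPKM on a log axis for each of the 17 mice, with Cd274, Irf1 and Ciita above and the summed markers of macrophages, T cells and B cells with Ptprc below. Case 3 and Case 5 lead in all 3 genes of the upper panel, but only Case 3 stands out in the macrophage sum (206 against 32.3 in Case 5).

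Pdcd1lg2, the other PD-1 ligand, lies beside Cd274 on the same strand with 22823 bases between them. It had 2 reads in all Case mice together, 1 each in Case 4 and Case 5, and none in the 11 mice of Ctrl and Dapa. No read in 82084113 Ctrl counts allows a level of up to 0.0449 CPM (counts scaled to the library total; exact Poisson, 95%, counting error only), and the Case interval was 0.00255 to 0.0760 CPM. Case 3, with 1407 reads of Cd274, had no read of its neighbour. The counts of Pdcd1lg2 passed the filter in no comparison, and in a fit without the filter its adjusted p was 0.369 for Case against Ctrl and 0.509 for Dapa against Case. The receptor PD-1 (Pdcd1) had 0 to 8 reads per mouse and 0 in 7 of 17, with its highest value in Dapa 8.

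Cd86 had 0.132, 0.144, 0.102, 0.406 and 0.286 FPKM in Ctrl and a lowest, median and highest value of 0.226, 0.394 and 0.432 in Case. Ctrl 4 lay among the highest Case mice and the groups overlapped. The log2 fold change was 0.63 ± 0.36 (95% interval -0.14 to 1.41; adjusted p = 0.264). It was 0.61 without Case 3 and 0.98 without Ctrl 4 (unadjusted p = 0.0157, adjusted p = 0.0831). Cd80, the second CD28 ligand, had 0 reads in Ctrl, 3 in all Case mice (1 each in Case 3, 4 and 5) and 3 in all Dapa mice, every one of them in Dapa 8. The Poisson intervals were 0.00651 to 0.0923 CPM in Case and 0.00709 to 0.1004 CPM in Dapa, against an upper limit of 0.0449 CPM in Ctrl, so no difference was detectable at this depth, and without the filter its adjusted p was 0.284 for Case against Ctrl. The receptors had few reads, 0 to 17 per mouse for Cd28 and 0 to 4 for Ctla4, which was at 0 in every Ctrl mouse. None of the 9 other genes of the B7 and CD28 family changed among the 4 tested, and their median log2 fold change was 0.34 beside 0.03 over all genes. Icosl, the ligand of ICOS, had the highest level of these in Case at 3.94 ± 1.17 FPKM against 2.65 ± 0.349 in Ctrl, with a log2 fold change of 0.50 ± 0.20 (adjusted p = 0.124).

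Btla was among the scarcest members that were tested. It had 11, 15, 11, 18 and 9 reads in Ctrl 1 to 5, which is 0.111, 0.150, 0.108, 0.175 and 0.0939 FPKM. Case mice 1 to 6 had 5, 6, 5, 10, 7 and 12 reads, or 0.0578, 0.0655, 0.0504, 0.103, 0.0730 and 0.111 FPKM. Of the 6 Case mice 4 lay below every Ctrl mouse, and Case 4 and Case 6 lay among them. The mean in Case was 0.602 times that of Ctrl and the log2 fold change was -0.78 ± 0.33 (95% interval -1.49 to -0.08), with an unadjusted p of 0.0316 and an adjusted p = 0.131 in the edgeR test, so the difference did not pass. The spread within groups was close to counting error, with an SD of 3.63 reads in Ctrl and 2.88 in Case where counting alone would give 3.58 and 2.74. Without Case 3 the log2 fold change was -0.68 (adjusted p = 0.193). The B cell list summed to 0.474 to 1.24 FPKM in Ctrl and 0.200 to 0.992 in Case, and their part in the Btla values was not tested. The list of 7 T cell markers summed to 0.743 to 1.41 FPKM in Ctrl and 2.27 in Case 3, while the other 5 Case mice, at 0.274 to 0.593, all lay below every Ctrl mouse. Case 3, the highest Case mouse in that sum, was the lowest of them in Btla. Cd8a, which marks cytotoxic T cells and was the 1 gene of that list with enough counts to be tested, moved the same way as Btla, with a log2 fold change of -1.09 ± 0.39 (unadjusted p = 0.0149, adjusted p = 0.0825) on 3 to 26 reads per mouse, and the part of T cells in the Btla values was likewise not tested.

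Tnfrsf14, the ligand that Btla binds, had 9, 15, 10, 15 and 19 reads in Ctrl and 21, 11, 57, 16, 16 and 18 in Case. In FPKM the Ctrl mice lay between 0.341 and 0.741 and the Case mice at 0.907, 0.449, 2.15, 0.619, 0.624 and 0.622. Only Case 1 and Case 3 lay above the Ctrl range, and Case 3 alone supplied 57 of the 139 Case reads. The log2 fold change of 0.71 ± 0.41 (95% interval -0.16 to 1.59; adjusted p = 0.267) was 0.26 without Case 3 (adjusted p = 0.616). Of its 50-base stretches 4.25% also occur in other genes, the largest share among the members. The other ligands of this receptor were low, with 0 to 12 reads of Tnfsf14 (LIGHT) per mouse. Cd160, a receptor of NK and T cells, had 4, 4, 8, 3 and 6 reads in Ctrl 1 to 5 and 0, 2, 1, 0, 0 and 0 in Case 1 to 6. Every Case mouse thus lay below every Ctrl mouse, but the Cd160 counts were too low to be tested. The 2 groups also lay wholly apart in 8.43% of all tested genes. Of the 5 other genes of the network 2 were tested and neither passed.

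Cd40 had 8 to 15 reads in Ctrl and 10 to 27 in Case, with 0.128 ± 0.0287 and 0.187 ± 0.0705 FPKM. In 3 Case mice the level was above the Ctrl range, and the log2 fold change was 0.47 ± 0.31 (95% interval -0.21 to 1.14; adjusted p = 0.348). It was 0.47 without Case 3 and 0.27 without Case 4, the mouse with 27 reads (adjusted p = 0.595). Its ligand Cd40lg had reads in 2 of the 17 mice, 1 in Ctrl 4 and 3 in Case 4. None of the 5 tested genes among the other 13 of the TNF superfamily and TRAF list passed, and the TRAF adaptor Traf1 had a log2 fold change of 0.48 ± 0.30 (adjusted p = 0.322).

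Lgals9 had 1.71, 2.09, 1.33, 3.00 and 2.43 FPKM in Ctrl and 1.81, 3.55, 4.82, 2.98, 2.77 and 3.34 in Case. Case 2, 3 and 6 were above the Ctrl range and Case 1 was in its lower part. The log2 fold change was 0.53 ± 0.23 (95% interval 0.02 to 1.03), with an unadjusted p of 0.0424 and an adjusted p = 0.157 in edgeR, and it was 0.39 without Case 3 (adjusted p = 0.289). With a term for the 7 libraries named in the processing notes it was 0.30 in the same test (unadjusted p = 0.268, adjusted p = 0.517). The receptor Havcr2 (TIM-3) had 4 to 30 reads per mouse, with a mean of 0.159 FPKM in Ctrl and 0.182 in Case and a log2 fold change of 0.10 ± 0.42 (adjusted p = 0.901). Of the other genes of the TIM-3, LAG-3 and TIGIT axes, 7 of 12 were tested and 1 changed, beside 13.0% of all tested genes. Pvrl3 (nectin-3), an adhesion molecule, fell from 8.08 ± 0.440 FPKM in Ctrl to 5.92 ± 0.585 in Case, a log2 fold change of -0.53 ± 0.08 (adjusted p = 0.00211).

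Cd47 varied little between mice. It had 12.3, 13.6, 12.9, 13.5 and 13.3 FPKM in Ctrl and 14.2, 14.7, 18.7, 12.5, 15.7 and 12.8 in Case, where Case 3 was highest. The log2 fold change was 0.09 ± 0.09, with a 95% interval of -0.10 to 0.28 (adjusted p = 0.551), and 0.02 without Case 3. Sirpa had 7.53, 5.71, 5.41, 7.71 and 6.28 FPKM in Ctrl and 5.00, 5.46, 10.0, 6.15, 11.0 and 6.06 in Case. Case 3 and Case 5, the mice with the most Cd274, were the pair above the Ctrl range. Its log2 fold change was 0.07 ± 0.20 (95% interval -0.36 to 0.51; adjusted p = 0.847) and changed sign without either of them, to -0.03 without Case 3 and -0.10 without Case 5. None of the 5 tested genes among the other 8 of the CD47 and SIRP list passed, although Thbs1 (thrombospondin-1), a secreted ligand of CD47, came near at 9.26 ± 2.04 FPKM in Ctrl and 14.0 ± 3.54 in Case (log2 fold change 0.51 ± 0.16, adjusted p = 0.0505).

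Dapa kidneys were then compared with Case kidneys, to ask which checkpoint genes differ with treatment among db/db mice. This comparison uses the same Case mice as the one above, so the high Cd274 of Case 3 and Case 5 enters both. No member of the 7 tested passed an adjusted p under 0.05 in edgeR's quasi-likelihood test, in which 0% of 14573 genes did. At an unadjusted p under 0.05 there were 3 (Cd274, Tnfrsf14 and Sirpa, each lower in Dapa), beside 12.9% of all genes, and DESeq2 and edgeR's exact test each called 1 member, Cd274, and 1.39% and 0.885% of all genes. In no tested member did the groups lie apart, as they did in 0.480% of all genes.

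Cd274 had 1.65, 1.49, 1.35, 1.81, 1.93 and 2.29 FPKM in Dapa 7 to 12. All 6 lay inside the wide Case range, since Case 6 was at 1.29, and below Case 1, 2, 3 and 5, while Case 4 (1.86) lay under Dapa 11 and Dapa 12. The Dapa mean was 0.183 times the Case mean, and the log2 fold change was -2.44 ± 0.63 (95% interval -3.79 to -1.09), with an unadjusted p of 0.00169 and an adjusted p = 0.212. The adjusted p was 0.0289 with DESeq2 and 0.0157 with the exact test, and 0.0963 to 0.437 when a mouse was left out of the quasi-likelihood fit. Without Case 3 the log2 fold change was -1.96 (adjusted p = 0.209). Irf1 and Ciita also had lower values in Dapa, with log2 fold changes of -1.86 ± 0.45 and -3.34 ± 0.83 and adjusted p-values of 0.194 and 0.197, and of -1.38 and -2.88 without Case 3. None of the 7 tested genes of the interferon-gamma list passed, and their median log2 fold change was -0.12 beside -0.01 over all genes.

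Tnfrsf14 had 8, 8, 4, 17, 10 and 12 reads in Dapa, or 0.331, 0.306, 0.158, 0.738, 0.453 and 0.566 FPKM. Dapa 7, 8 and 9 lay below every Case mouse, and Dapa 10 lay above 4 of the 6. The log2 fold change was -1.08 ± 0.43 (95% interval -1.999 to -0.17; adjusted p = 0.322), and it was -0.64 without Case 3 (adjusted p = 0.421). Btla had 11, 25, 5, 15, 15 and 7 reads in Dapa, or 0.122, 0.255, 0.0528, 0.174, 0.182 and 0.0883 FPKM. Dapa 7, 8, 10 and 11 were above every Case mouse and Dapa 9 was as low as the lowest, with an SD of 7.16 reads where counting alone would give 3.61. Its counts were too low for the filter in this comparison. Summed over mice, Btla had 0.474 CPM in Case (95% Poisson interval 0.345 to 0.634) and 0.893 in Dapa (0.706 to 1.12), intervals that cover counting error only and not the spread between mice. In a fit without the filter its log2 fold change was 0.87 ± 0.43 (95% interval -0.04 to 1.77; unadjusted p = 0.0595, adjusted p = 0.457). Btla passed the filter with all 3 groups in one fit (0.87, unadjusted p = 0.0266, adjusted p = 0.266) and in 7 fits that left out a mouse, where the log2 fold change ran from 0.76 without Case 3 (unadjusted p = 0.0805, adjusted p = 0.393) to 1.04 without Dapa 9 (unadjusted p = 0.0127, adjusted p = 0.296). The T cell list summed to 0.674 to 2.49 FPKM in Dapa, above the 5 Case mice other than Case 3, and the B cell list to 0.510 to 1.36. Dapa 8, the highest Dapa mouse in Btla, had a T cell sum of 2.49, and Dapa 9, the lowest in Btla, one of 2.25. Of the T cell list Cd8a had a log2 fold change of 0.99 ± 0.44 (unadjusted p = 0.0412, adjusted p = 0.370) and Cd4, the other gene tested, of 0.84 ± 0.79 (adjusted p = 0.682), and the part of lymphocytes in the Btla values was not tested.

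Sirpa had 7.15, 4.40, 6.00, 3.74, 4.04 and 3.56 FPKM in Dapa, where 4 of 6 mice were below every Case mouse. The mean was 4.82 ± 1.44 against 7.29 ± 2.56 in Case, and the log2 fold change was -0.61 ± 0.23 (95% interval -1.09 to -0.12), with an unadjusted p of 0.0178 and an adjusted p = 0.294. It was -0.51 without Case 3 (adjusted p = 0.329) and -0.45 without Case 5 (adjusted p = 0.442). Cd47 had 14.6, 15.6, 16.6, 15.8, 15.2 and 15.2 FPKM in Dapa, all inside the Case range, and a log2 fold change of 0.06 ± 0.09 with a 95% interval of -0.13 to 0.25, which was 0.12 without Case 3 and 0.01 without Case 4.

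Lgals9 in Dapa ran from 1.69 to 3.61 FPKM with a median of 2.76, and its log2 fold change was -0.30 ± 0.23 (95% interval -0.80 to 0.20). Cd86 ran from 0.263 to 0.509 FPKM with a median of 0.364, giving 0.04 ± 0.25 (95% interval -0.50 to 0.58). Cd40 ran from 7 to 29 reads and gave 0.09 ± 0.36 (95% interval -0.67 to 0.86), with Dapa 12 above and Dapa 11 below every Case mouse. For these 3 genes the adjusted p-values were 0.604, 0.960 and 0.934, and the log2 fold changes without Case 3 were -0.17, 0.06 and 0.08. With any 1 mouse left out that of Lgals9 ran from -0.41 to -0.17. Among the other genes of the lists none passed in this comparison, with 5 tested in the B7 and CD28 family, 1 in the BTLA network, 5 in the TNF list, 7 in the TIM-3 list and 5 in the CD47 list.

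**Figure D3:**
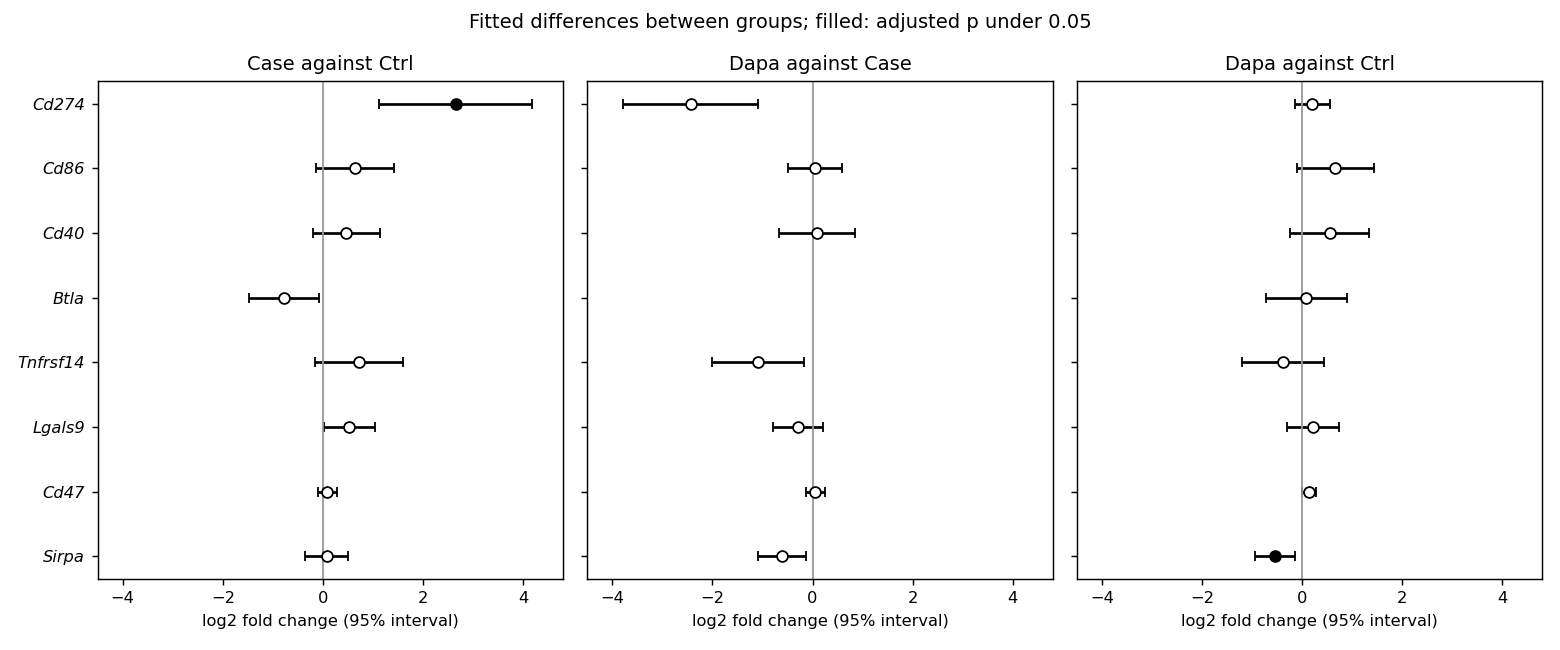
Log2 fold change (horizontal axis) with its 95% interval from edgeR for the members tested, with a panel for each of the 3 pairs of groups and filled points where the adjusted p was under 0.05. Filled points are Cd274 at 2.65 in the first panel and Sirpa at -0.54 in the last, and Btla has no point in the middle panel because its counts were too low for the filter.

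Dapa was last set beside Ctrl, to see where treated db/db mice stood relative to mice without diabetes. Of 8 members tested Sirpa alone passed the adjusted threshold, and 29.1% of 14647 genes did. At an unadjusted p under 0.05 there was likewise 1, beside 41.1% of all genes, and the groups lay wholly apart in 1 member, Cd47, as in 14.5% of all genes.

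Sirpa fell from 6.53 ± 1.05 FPKM in Ctrl to 4.82 ± 1.44 in Dapa, with a log2 fold change of -0.54 ± 0.18 (95% interval -0.94 to -0.14; adjusted p = 0.0429). Dapa 8, 10, 11 and 12 lay below every Ctrl mouse, and Dapa 7 and Dapa 9 lay among them. The call depended on single mice, with an adjusted p of up to 0.117 when 1 was left out and a loss of the call without Ctrl 1, 2, 3, 4 or 5 or Dapa 8, 10, 11 or 12. It was also lost with library totals, upper quartile scaling, no filter, all 3 groups in one fit and limma (adjusted p of 0.0522 to 0.0827), always with the same direction. Of the 5 other genes tested in the CD47 and SIRP list 1 fell and 1 rose, where 29.1% of all genes passed in either direction. Ptpn6, the phosphatase SHP-1 that SIRPα recruits, fell from 5.11 ± 0.729 to 3.98 ± 0.714 FPKM (log2 fold change -0.47 ± 0.14, adjusted p = 0.0269). Ptpn11 of the same list did not pass (0.09 ± 0.07, adjusted p = 0.310). Thbs1 rose from 9.26 ± 2.04 to 14.5 ± 2.93 FPKM (0.54 ± 0.15, adjusted p = 0.0171). The macrophage list, whose cells carry SIRPα, summed to 27.6 to 47.6 FPKM in Ctrl and 26.3 to 63.2 in Dapa, while Ptprc, at 0.371 to 0.599 and 0.225 to 0.521 FPKM, had the same log2 fold change as Sirpa, -0.54 ± 0.20, without passing (unadjusted p = 0.0192, adjusted p = 0.0608). In the same comparison 7 of the 8 proximal tubule markers passed as lower (all but Slc5a2), and 3 of 5 distal nephron markers (Slc12a3, Aqp2 and Calb1) and 2 of 4 podocyte markers (Nphs1 and Podxl) as higher. The part of leukocyte number and of nephron segments in the Sirpa values was not tested.

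All 6 Dapa mice had more Cd47 than any Ctrl mouse in FPKM, 14.6 to 16.6 against 12.3 to 13.6. The difference was small, with a log2 fold change of 0.14 ± 0.07 (95% interval -0.0031 to 0.28) and an adjusted p = 0.129. It passed when libraries were scaled by their totals alone (0.24, adjusted p = 0.0126), the scaling that FPKM uses, so whether Cd47 counts as higher turned on the scaling.

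Cd274 in Dapa overlapped Ctrl, with 4 of 6 mice above the highest Ctrl mouse and a log2 fold change of 0.20 ± 0.16 (95% interval -0.15 to 0.55; adjusted p = 0.374). Irf1 and Ciita had log2 fold changes of 0.13 ± 0.23 and 0.15 ± 0.33 and neither passed, and of the interferon-gamma list Jak1, a kinase of the receptor, fell (-0.33 ± 0.08, adjusted p = 0.00855). Btla had a log2 fold change of 0.08 ± 0.38 (95% interval -0.73 to 0.89), Tnfrsf14 of -0.38 ± 0.38 (-1.19 to 0.44), Lgals9 of 0.23 ± 0.24 (-0.30 to 0.75), Cd86 of 0.67 ± 0.36 (-0.11 to 1.44) and Cd40 of 0.55 ± 0.36 (-0.23 to 1.34). The intervals of the low genes are wide, and single mice moved these values. Tnfrsf14 was at -0.20 without Dapa 9 and -0.61 without Dapa 10, Lgals9 at 0.11 without Ctrl 3 and 0.37 without Ctrl 4, and Cd40 at 0.26 without Dapa 12. Cd86 was at 1.01 without Ctrl 4, where it passed (adjusted p = 0.0478), Cd274 was at 0.12 without Dapa 12, and Btla turned to -0.16 without Dapa 8. In the B7 and CD28 family 2 of the 5 other genes tested rose, where 29.1% of all genes passed in either direction. Cd276 (B7-H3) went from 0.0597 ± 0.0449 to 0.221 ± 0.0780 FPKM on 0 to 25 reads per mouse (1.75 ± 0.53, adjusted p = 0.0259), and Rgmb, a PD-L2 binding protein, from 2.64 ± 0.642 to 4.22 ± 0.923 FPKM (0.57 ± 0.19, adjusted p = 0.0350). Of the 7 other genes tested in the TIM-3, LAG-3 and TIGIT list, Pvrl2 (nectin-2) rose (0.58 ± 0.13, adjusted p = 0.00732) and Pvrl3 fell (-0.62 ± 0.08, adjusted p = 0.000386), again beside 29.1% of all genes.

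Ligands and receptors were unequal in level. Per length, Cd274 stood at 1.41, 9.57 and 1.75 FPKM in Ctrl, Case and Dapa while its receptor Pdcd1 stood at 0.0446, 0.0272 and 0.0842. Lgals9 at 2.11, 3.21 and 2.65 FPKM was likewise above Havcr2 at 0.159, 0.182 and 0.305. The Havcr2 values of all Dapa mice (0.270 to 0.351) lay above those of all Ctrl mice (0.0496 to 0.240), as the 2 groups lay apart in 14.5% of all genes. Its log2 fold change of 0.83 ± 0.32 did not pass (adjusted p = 0.0694). Cd47 and Sirpa were above 3 FPKM in every mouse. The plot of binding partners shows the group means of each pair.

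**Figure D4:**
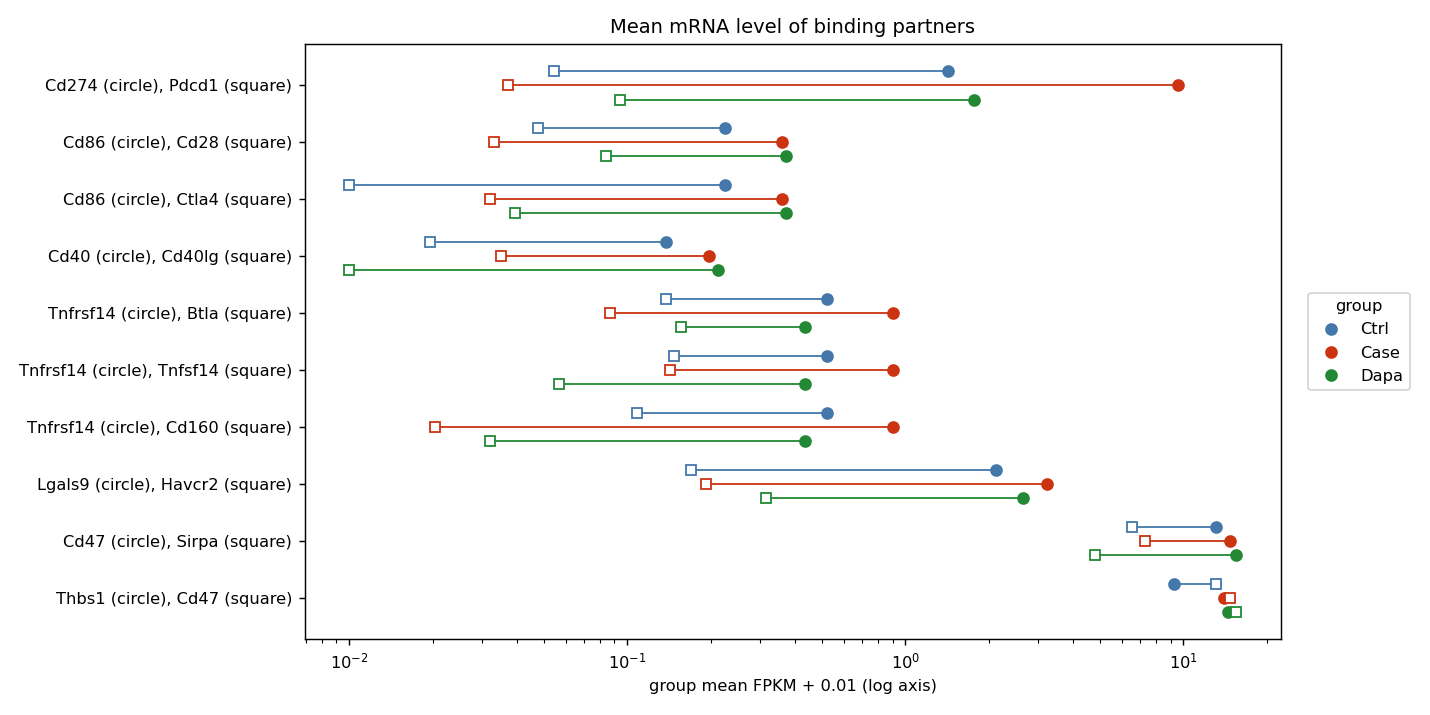
Group mean FPKM plus 0.01 (log axis) of pairs of binding partners in Ctrl, Case and Dapa, joined by a line, with circles for the first gene named and squares for the second. Cd80 and Pdcd1lg2 are not plotted. The partners Pdcd1, Cd28, Ctla4 and Cd40lg lie near 0.1 or below in all groups, and Cd47, Sirpa and Thbs1 lie between 4.8 and 15.5.

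The genes whose levels ordered the 17 mice most like each member are given as a description, since the mice share 3 groups and library totals, which alone can align genes. Over those mice Cd274 was closest to Serpinb9, a granzyme B inhibitor (Spearman's rho 0.897), Bicd1 (0.880) and Psme1, a subunit of the proteasome activator that interferon induces (0.877). Lgals9 was closest to Grap (0.882), Pid1 (0.880) and Frem1 (0.875), and Cd47 to Trim5 (0.890), Traf3ip2 (0.875) and Zfp455 (0.870). Sirpa was closest to Sema4a (0.870), Kcnj16 (0.843) and Ablim3 (0.819), and Cd40 to Rbbp7 (0.892), Kcnab2 (0.873) and Kit (0.848). Cd86 was closest to Ddx49 (0.858), Nexn (0.836) and Mfsd7a (0.811). Btla and Tnfrsf14 had weaker companions, Gnmt (0.789) and B130055M24Rik (0.762) being the closest.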

How the data were processed

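RNA from whole kidneys of 17 mice was measured with 1 library per mouse, and p-values measure the spread between mice. As the methods describe, the authors enriched mRNA with oligo(dT), aligned reads to mm10 with HISAT2 and counted genes with Stringtie. The deposited table gives a read count and an FPKM value per gene and mouse. The authors' FPKM followed count, library total and gene length within 0.00202%, so it holds no TMM factor. Whether counting used the strand is not given in the sources used here. Of 22561 genes, 3 were not used. Each of these fills 2 lines of the table, with FPKM and counts that disagree in 7 libraries (Ctrl 1, 3 and 4, Case 1, Dapa 10 to 12; factors 0.970 to 1.379). The deposited GO, KEGG and comparison columns were not used. Mitochondrial genes took 17.9% to 27.64% of counts, and no libraries of a group were duplicates (lowest chi-square per gene 15.0).

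Groups came from the sample labels. Counts were compared with edgeR 4.0.16 in R 4.3.3 (TMM, filterByExpr, quasi-likelihood test, Benjamini-Hochberg over all genes tested), each comparison on its own 2 groups. A gene was called at an adjusted p under 0.05. Standard errors and 95% intervals came from the same fit. Members and gene lists were chosen with earlier results of these data known, and 1 gene of the interferon-gamma list is not reported here. All members were named, with the called genes of the pathway lists, binding partners, and the closest genes by Spearman's rho. Marker lists covered macrophages, dendritic, B, T and NK cells, neutrophils, leukocytes, endothelium, adipocytes, proximal tubule, distal nephron and podocytes. The NK cell list summed to 0.136 to 1.22 FPKM, the endothelium list to 26.9 to 60.4, the adipocyte list to 0 to 14.5 (highest in Ctrl 3), the distal nephron list to 617 to 2987 and the podocyte list to 58.5 to 101. Promoters came from RefSeq (GRCm38.p6). Alternatives were DESeq2 1.42.0, the exact test, other scalings and filters, all 3 groups in one fit, limma 3.58.1 on log2(FPKM + 1) and log2(FPKM + 0.1), no mitochondrial genes, a term for the 7 libraries, a replicate block, and fits that omit 1 mouse. On simulated data the quasi-likelihood step recovered 94.3% of 194 genes changed 4-fold in Case against Ctrl (12 false calls), while for Dapa and Case it was 94.3% of 194 (7 false calls) and for Dapa and Ctrl 95.9% of 193 (12). The changed genes were drawn at random from all those tested, so these shares do not measure the power for members with low counts or a wide spread between mice. Other steps used Python 3.11.15 with numpy 2.4.6, scipy 1.17.1, pandas 2.3.3 and matplotlib 3.10.9. Poisson intervals cover counting error only, since the reads carry no molecular identifiers.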

Additional observations from a re-analysis of the deposited data

Results flagged for a closer look

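Of 27 groups of mice checked, each 1 member in 1 group, 3 held a single mouse whose gap to its nearest neighbour was large for the range of the group (Dixon's 95% limit), and chance marks about 1 in 20 groups, or 1.35 of 27. Tnfrsf14 was at 2.15 FPKM (57 reads) in Case 3, with 0.449 to 0.907 in the other Case mice. Cd80 was at 0.110 FPKM in Dapa 8, which is 3 reads, with 0 in the other Dapa mice. With all others at 0, any read in a single mouse would have been flagged, so the chance rate does not apply to that group. Cd40 was at 0.402 FPKM (29 reads) in Dapa 12, with 0.0934 to 0.204 in the other Dapa mice.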

How the results depend on the processing

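In Case against Ctrl the number of members called was 1 (Cd274) in 8 of 12 other settings and 0 with limma on log2(FPKM + 1) (Cd274 1.51, adjusted p = 0.104), with limma on log2(FPKM + 0.1) (1.87, adjusted p = 0.0886), with the term for the 7 libraries (2.52, adjusted p = 0.0827) and with the replicate block. Under the replicate block, with 0 called, the log2 fold change of Cd274 was 2.26 (adjusted p = 0.0786). The numbers 1 to 5 do not pair the mice (correlations of same-numbered mice -0.067 to -0.043). With a mouse left out the count was 0 to 1, and 0 without Ctrl 1, 2, 3, 4 or 5 or Case 3, where the log2 fold change of Cd274 was 2.16 to 2.70 and its adjusted p 0.05002 to 0.0694. In Dapa against Case the count of 0 became 1 with DESeq2 and with the exact test, which called 202 and 129 genes in all where the quasi-likelihood test called 0, and it stayed at 0 otherwise, with any mouse left out included. In Dapa against Ctrl the count of 1 (Sirpa) became 0 with upper quartile scaling, with no filter and with all 3 groups in one fit, and was 0 to 1 with a mouse left out. It stayed at 1 but was Cd47 in place of Sirpa with library totals only and with limma (adjusted p = 0.0104 for Cd47 on both scales), and Cd86 without Ctrl 4 (1.01, adjusted p = 0.0478). Directions turned in 4 uncalled results when a mouse was left out, with ranges of -0.10 to 0.15 for Sirpa in Case against Ctrl, -0.10 to 0.12 for Cd86 and -0.21 to 0.29 for Cd40 in Dapa against Case, and -0.16 to 0.26 for Btla in Dapa against Ctrl. Btla in Case against Ctrl had an adjusted p of 0.0867 to 0.255 and passed in no alternative. Where no construction is named the cause was not tested. Leaving Case 3 out of the fits of Irf1 and Ciita was chosen after seeing the data and changed no call. Group means of 7.50 to 25.8 reads per mouse limit the precision of Btla, Cd40, Cd86 and Tnfrsf14.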
